A study of Rattus norvegicus with 105 samples.

Results

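The 4 genes described here are Bhlha15, Selenom, Tsku and Shc4, of 20946 gene symbols on the panel. They were chosen by their measured levels, for a high level in primary rat hepatocytes after nitroethane at 10 mM beside a lower level after nitromethane at 10 mM. Each has 1 detector probe. The libraries of nitroethane at 10 mM and nitromethane at 10 mM, against each other and against the controls, are the values behind the choice, so at 10 mM those 2 compounds are given as a description with no test. The lower concentrations, 1-nitropropane, the controls of set 2 and the reference compounds were not part of the choice. The DMSO and medium libraries of set 1 were its controls, so tests against them are not fully independent of it.

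The cells were primary hepatocytes of female Sprague-Dawley rats from 1 commercial lot, exposed for 24 h and profiled with TempO-Seq, a targeted assay that joins pairs of detector oligonucleotides on each RNA and counts the products. Nitromethane, nitroethane and 1-nitropropane carry a single nitro group on a carbon chain that grows by one carbon from each to the next. Each was given at 8 concentrations between 0.003 and 10 mM, with n = 3 libraries a concentration. The labels give these numbers once with a µM unit and once in mM, and mM is used here. Set 1 held nitromethane, nitroethane, medium, DMSO, benzo[a]pyrene (50 µM), CITCO (10 and 20 µM), rifampin (20 and 40 µM) and WY-14643 (50 µM). Set 2 held 1-nitropropane, medium, DMSO and WY-14643 (titled 50 µM, with 100 in the library names). DMSO is titled 0.5 in the labels and given as 0.2% in the protocol text, and whether the nitroalkane wells held DMSO is not given in the sources used here. Nothing in the labels places the replicates in separate animals, so every p-value measures the spread between wells of 1 lot. Each concentration had a plate row to itself (A the lowest, H the highest), medium shared row A and DMSO row B, and so concentration and plate row cannot be told apart.

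Levels with nitromethane were lower beside nitroethane, but beside the controls this depended on the gene and on the control. At 10 mM nitromethane Bhlha15 was below every DMSO library of set 1 and overlapped medium. Selenom overlapped both controls, with 1 library below all of them. Tsku was slightly above both controls, and Shc4 was above DMSO and overlapped medium.

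The genes have separate roles in secretion and signalling. Bhlha15 (MIST1) is a basic helix-loop-helix transcription factor of secretory cells such as pancreatic acinar cells. It is a known target of XBP1, the factor that IRE1 switches on when unfolded protein builds up in the endoplasmic reticulum (ER), and it drives genes of the secretory granule such as Rab3d. Selenom encodes a selenoprotein with a thioredoxin-like fold that resides in the ER. Tsku (Tsukushi) is a leucine-rich repeat protein that liver cells secrete into blood. Shc4 is an adaptor of the SHC family that binds phosphorylated receptor tyrosine kinases and links them to GRB2, RAS and the ERK kinases.

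The 250 bases before the transcription start of each gene are shown because genes that rose together may share letters there, and because Tsku also responded to an AhR ligand. They come from RefSeq (build GRCr8, 5′ to 3′ on the strand of the gene), and 4 of 4 genes matched by symbol. Capitals mark matches on either strand to GCGTG, the core of the AhR element, or to GACGTG, the inner part of the UPR element TGACGTGG. The motif GACGTG was searched after the letters had been read.
Bhlha15, chr12:15538300-15538549, minus strand: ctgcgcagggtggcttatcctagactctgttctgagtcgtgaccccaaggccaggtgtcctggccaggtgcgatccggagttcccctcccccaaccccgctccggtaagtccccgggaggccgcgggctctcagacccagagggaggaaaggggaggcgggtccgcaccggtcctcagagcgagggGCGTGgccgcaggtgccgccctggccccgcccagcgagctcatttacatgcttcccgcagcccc
Selenom, chr14:82619203-82619452, plus strand: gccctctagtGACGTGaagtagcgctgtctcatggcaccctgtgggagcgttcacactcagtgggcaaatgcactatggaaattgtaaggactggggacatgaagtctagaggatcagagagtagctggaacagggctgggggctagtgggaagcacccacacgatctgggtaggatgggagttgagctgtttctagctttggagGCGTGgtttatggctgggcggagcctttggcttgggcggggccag
Tsku, chr1:162082769-162083018, minus strand: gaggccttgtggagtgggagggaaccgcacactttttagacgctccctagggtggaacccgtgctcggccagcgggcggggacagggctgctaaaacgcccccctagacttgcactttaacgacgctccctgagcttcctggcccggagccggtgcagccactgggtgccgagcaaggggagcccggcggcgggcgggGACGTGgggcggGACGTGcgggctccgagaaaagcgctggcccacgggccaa
Shc4, chr3:133427628-133427877, minus strand: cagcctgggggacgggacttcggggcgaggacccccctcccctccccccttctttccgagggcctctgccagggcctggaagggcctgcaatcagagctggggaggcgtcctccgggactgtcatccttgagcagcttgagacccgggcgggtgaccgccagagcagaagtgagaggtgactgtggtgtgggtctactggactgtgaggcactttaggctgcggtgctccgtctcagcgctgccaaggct
Just after the start, Bhlha15 and Selenom each hold a further GACGTG, shown with its flanks.
Bhlha15, chr12:15538264-15538293, minus strand: ggtggctaaagcGACGTGtccttgtccccc
Selenom, chr14:82619453-82619482, plus strand: cttgcgggctaGACGTGgcgcagcggccga

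In the full window of 250 bases before to 50 after the start, GACGTG was found in 3 of 4 genes (Bhlha15, Selenom and Tsku, not Shc4) and in 6.31% of the 33469 promoters of that length. GCGTG was found in 4 of 4 and in 29.7% of all promoters, at position -64 in Bhlha15, -45 in Selenom, 20 in Tsku and, on the other strand, 36 in Shc4, counted from the first transcribed base as 1. The UPR element was searched as TGACGTGG only (0.595% of promoters), which had no match in the 4 windows. In Selenom the GACGTG at position -240 stands in TGACGTGA, which differs from those letters at its end. That form was not counted over all promoters. The ER stress response element (0.0657%), the ATF4 composite element TGATGNAAT (1.09%) and the antioxidant element TGACNNNGC (12.1%) had no match in the 4 windows. The E-box CAGCTG, in 15.1% of promoters, was found in Tsku alone, at position 34. The 4 windows were rich in G and C (69, 59, 70 and 65.3% for Bhlha15, Selenom, Tsku and Shc4, against a median of 51.7%). A match of letters describes the window and does not show that a factor binds there.

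Levels are in CPM, counts scaled to the library total, in the order of the replicate numbers (1 to 3, and 4 to 6 for the controls and WY-14643 of set 2). Over the 105 libraries Bhlha15 ran from 0.734 to 77.9 CPM (5 to 665 counts), Selenom from 0.481 to 83.5 CPM (4 to 713 counts), Tsku from 20.5 to 686 CPM (152 to 5858 counts) and Shc4 from 0.986 to 36.4 CPM (9 to 273 counts). Tsku was thus counted far more deeply than the other 3 probes, and levels are not compared between genes. Library totals ran from 5475419 to 11122665 counts. All 4 probes passed the low-count filter in every fit. A probe was called at an adjusted p under 0.05 (edgeR quasi-likelihood test, Benjamini-Hochberg over all probes kept), and log2 changes are given ± their standard error (SE).

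An earlier look at these data found 6 libraries that stood apart from their group. Nitroethane 10 mM replicate 2 had counts in 21627 probes, against a median of 13792. The others were nitromethane 10 mM replicate 3, 3 mM replicate 1 and 1 mM replicate 1, 1-nitropropane 10 mM replicate 3 and nitroethane 0.01 mM replicate 3. Results that turn on one of them are given with and without it. Of the marker lists, hepatocyte markers were present (12 probes, summed level 7009 to 16510 CPM over all libraries), while 10 of 10 endothelial, 8 of 8 lymphocyte and 14 of 15 pancreatic acinar probes had a median of 0. Of 12 Kupffer cell probes 7 had a median of 0, Clec4f, Marco, Vsig4, Adgre1, C1qa and C1qb among them. The Kupffer list sum was 93.1 to 141 CPM at 10 mM nitroethane against 39.2 to 64.4 CPM in the set 1 controls. There 1 of 3 tested Kupffer probes was called against medium (34% of all probes). At 3 mM nitroethane the Kupffer sum was 56.3 to 59.9 CPM, inside the range of the controls. Against DMSO Cd14 was called higher (0.57 ± 0.15, adjusted p = 0.0195) and Csf1r lower (-1.73 ± 0.50, adjusted p = 0.038), 2 of 3 tested probes (6.08% of all probes). The cholangiocyte list sum was 568 to 701 CPM at 3 mM and 498 to 524 CPM at 10 mM nitroethane against 835 to 1135 CPM in the set 1 controls. At 10 mM nitroethane the stellate cell list sum was 242 to 312 CPM against 334 to 415 CPM in those controls, and the hepatocyte list sum was 7009 to 9337 CPM against 8846.5 to 16510 CPM. Calls of hepatocyte probes depended on the control. Against medium 5 of 12 rose and 2 fell (2052 and 2145 of all 12339 probes). Against DMSO 2 rose and 6 fell (1634 and 1923 of all 12326). In medium of set 1 itself 9 of 12 were lower than in DMSO (469 of all 12102). The acinar, endothelial and lymphocyte sums reached 36.1, 15.7 and 8.92 CPM in the highest 10 mM nitroethane library, against at most 2.05, 0.71 and 0.23 CPM in those controls. These maxima rest on 1 library each, as the medians of the 10 mM libraries were 1.44, 1.11 and 0.11 CPM. The part of other cells in the results was not tested, and in bulk libraries fewer cells of a type and less RNA per cell cannot be told apart.

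Nitroethane raised Bhlha15 in steps. The gene was at 7.22, 5.53 and 5.35 CPM in DMSO and at 2.20, 3.01 and 1.02 CPM in medium of set 1. In the 12 libraries of 0.003 to 0.1 mM nitroethane it ran from 1.39 to 3.92 CPM (median 2.99). It was 8.04, 7.82 and 10.6 CPM at 1 mM, 22.8, 28.9 and 23.9 CPM at 3 mM and 58.9, 59.9 and 56.8 CPM at 10 mM. All 3 libraries at each of 1, 3 and 10 mM lay above all DMSO and medium libraries of the set. At 3 mM the log2 change was 2.08 ± 0.24 against DMSO (adjusted p = 2.95e-06) and 3.68 ± 0.30 against medium (adjusted p = 8.47e-09). Against medium the rise was called from 1 mM (2.04 ± 0.31, adjusted p = 0.00267), though not when the 6 libraries compared were fitted alone (adjusted p = 0.0713).

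Selenom, the ER selenoprotein, rose later. It was at 3.79, 4.72 and 4.01 CPM in DMSO and 3.60, 4.01 and 2.62 CPM in medium. At 1 mM nitroethane it was 4.37, 5.33 and 5.22 CPM, which overlapped DMSO. It reached 16.5, 13.1 and 13.5 CPM at 3 mM and 35.4, 22.8 and 54.0 CPM at 10 mM, above every control library. The lowest of the 10 mM values was replicate 2, the library with counts in the most probes. At 3 mM the log2 change was 1.80 ± 0.38 against DMSO (adjusted p = 0.00371) and 2.15 ± 0.39 against medium (adjusted p = 0.000416).

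Tsku, the secreted leucine-rich repeat protein, rose modestly up to 3 mM and stepped up at 10 mM. It was at 45.0, 37.0 and 35.3 CPM in DMSO and 39.9, 31.9 and 36.1 CPM in medium. Nitroethane gave 58.7, 52.2 and 54.3 CPM at 0.3 mM, 57.2, 62.3 and 61.1 CPM at 1 mM, 89.1, 68.3 and 44.5 CPM at 3 mM and 333, 387 and 375 CPM at 10 mM. Replicate 3 of 3 mM fell within the DMSO range, and all other libraries from 0.3 mM up lay above both controls. The log2 change at 3 mM was 0.80 ± 0.16 against DMSO (adjusted p = 0.00264) and 0.98 ± 0.16 against medium (adjusted p = 0.00012).

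Shc4, the receptor adaptor, was lower in DMSO than in medium, the reverse of Bhlha15. It was at 1.66, 1.61 and 2.01 CPM in DMSO but 8.0, 5.01 and 3.64 CPM in medium. Nitroethane libraries of 0.003 to 0.1 mM ran from 2.25 to 7.75 CPM (median 5.52), all above DMSO. The values were 6.17, 9.94 and 16.5 CPM at 0.3 mM, 9.93, 10.5 and 21.5 CPM at 1 mM, 6.04, 8.81 and 4.65 CPM at 3 mM and 15.2, 36.4 and 14.3 CPM at 10 mM. The 1 mM libraries were above every medium library and the 3 mM libraries were not. The highest Shc4 library was also the one with counts in the most probes at 10 mM (21627), 1 mM (16178) and 0.3 mM (14354). At 3 mM, where the libraries had 13287 to 13477, it was the one with the fewest. The highest Shc4 library also had the most probes with nitromethane at 1 mM (16558), 3 mM (14783) and 10 mM (14398) and 1-nitropropane at 0.003 mM (16457). This did not hold in every group: with 1-nitropropane at 1 mM (13723) and 10 mM (13757) it had the fewest. The part of this in the Shc4 levels was not tested. Against DMSO the log2 change was called at 0.003 mM (1.65 ± 0.46, adjusted p = 0.0486), at 0.3 mM (2.49 ± 0.45, adjusted p = 0.000782), at 1 mM (2.87 ± 0.45, adjusted p = 0.000262) and at 3 mM (1.88 ± 0.46, adjusted p = 0.0135). Against medium it was 0.29 ± 0.43 at 3 mM (adjusted p = 0.748). The 3 mM call against DMSO was lost without DMSO replicate 1 (adjusted p = 0.057), DMSO replicate 2 (0.0621) or nitroethane replicate 2 (0.0786). The 0.003 mM call was lost on leaving out any 1 of its 6 libraries (adjusted p = 0.054 to 0.199).

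**Figure D1:**
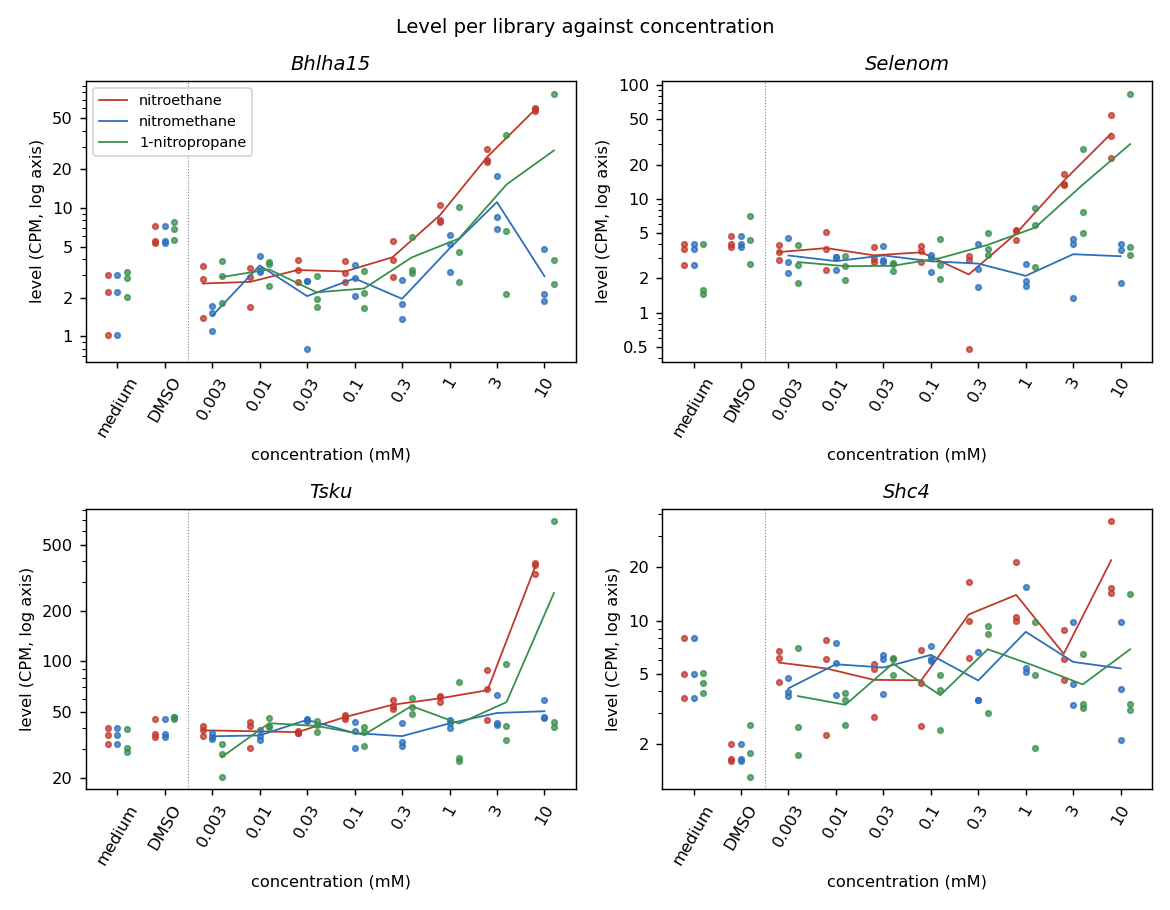
Level of each gene (CPM, log axis) in every library, against concentration (mM, by rank) for nitroethane (red), nitromethane (blue) and 1-nitropropane (green), with the medium and DMSO libraries of each compound's set at the left; points are libraries and lines join the means of 3. Bhlha15 at 10 mM nitroethane sits at 56.8 to 59.9 CPM, while 1 of the 3 libraries of 10 mM 1-nitropropane sits far above the other 2 for every gene.

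The members' calls with nitroethane up to 3 mM were set against the share of all probes called. The comparisons with DMSO and medium use the same control libraries as the 10 mM contrast behind the choice. The trend gives no weight to the DMSO and 10 mM libraries, but both were in its fit and entered its filter, scaling and spread. The linear trend over the rank of 0.003 to 3 mM was called for 3 of 4 members, where 9.69% of all probes were called. The slope in log2 per concentration step was 0.48 ± 0.04 for Bhlha15 (adjusted p = 1.44e-09), 0.23 ± 0.05 for Selenom (0.00469), 0.15 ± 0.02 for Tsku (3.73e-05) and 0.15 ± 0.05 for Shc4 (0.0733, but 0.0453 with DESeq2, 0.00483 with no low-count filter and 0.0385 without 0.01 mM replicate 2). By that slope Bhlha15 ranked 8 of 12326 probes. At 3 mM 4 of 4 members were called against DMSO (6.08% of all probes) and 3 of 4 against medium (11.5%). At 1 mM the calls were Shc4 against DMSO (2.81%) and Bhlha15 against medium (0.219%). At 0.3 mM they were Shc4 against DMSO (5.29%) and none against medium (0.0324%). At the lowest concentration, 0.003 mM, Bhlha15 (-1.28 ± 0.27, adjusted p = 0.00597) and Shc4 were called against DMSO (2.97%) and none against medium (0%). The Bhlha15 call at 0.003 mM was lost without DMSO replicate 1 (adjusted p = 0.0614) or nitroethane 0.003 mM replicate 1 (0.0657).

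At 10 mM, where the members were chosen, the log2 changes against DMSO were 3.22 for Bhlha15, 3.13 for Selenom, 3.16 for Tsku and 3.52 for Shc4. Against medium they were 4.82, 3.49, 3.34 and 1.92 in the same order. Over all probes 28.9% were called against DMSO and 34% against medium. Between nitroethane and nitromethane at 10 mM the members differed by 4.38, 3.64, 2.91 and 2.06 on the log2 scale. By that difference Bhlha15 ranked 12 of 11551 probes, between G6pc (4.75) and Fibin (4.36), Selenom 23, between Aadac (3.64) and Cyp4a2 (3.63), Tsku 64, between Fbp1 (2.93) and Gsta2 (2.90), and Shc4 214, between Col6a2 (2.06) and Aamdc (2.06). The members were therefore not the genes with the highest ranks of this contrast.

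Bhlha15 also rose with nitromethane, up to 3 mM, and was back near medium at 10 mM. The gene was at 6.11, 5.25 and 3.14 CPM at 1 mM, 17.9, 8.54 and 6.89 CPM at 3 mM and 1.89, 2.12 and 4.82 CPM at 10 mM. All 3 libraries of 3 mM were above medium and 2 of 3 were above every DMSO library of the set, while at 10 mM all 3 were below DMSO. The trend from 0.003 to 3 mM was called for Bhlha15 (0.34 ± 0.06 per step, adjusted p = 0.00275) and for no other member, against 1.9% of all probes. At 3 mM the change against medium was 2.40 ± 0.46 (adjusted p = 0.00423), the 1 call of 4 members in that comparison (2.32% of all probes). It was lost when the 6 libraries were fitted alone (adjusted p = 0.285). Replicate 1 of 3 mM, the highest, is a library that stood apart, and without it the call stayed. Against DMSO 0 of 4 members were called at 3 mM (0.679%), where DESeq2 called Shc4 (1.68, adjusted p = 0.0455).

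The other members stayed near the controls with nitromethane. Selenom was 1.36, 4.41 and 4.02 CPM at 3 mM and 3.99, 3.58 and 1.82 CPM at 10 mM. Tsku was 63.3, 41.4 and 42.8 CPM at 3 mM and 46.8, 46.0 and 58.4 CPM at 10 mM, the last 3 all slightly above both controls of the set. Shc4 was 9.80, 4.41 and 3.33 CPM at 3 mM and 4.10, 2.12 and 9.89 CPM at 10 mM, above DMSO in all and overlapping medium. At 1 mM against DMSO Shc4 was called (2.16 ± 0.49, adjusted p = 0.0167, 2.05% of all probes), a call lost without replicate 1 of 1 mM nitromethane (1.52, adjusted p = 0.181) or any 1 DMSO library (adjusted p = 0.0557 to 0.0943), and when the 6 libraries were fitted alone (0.138). At 0.003 mM against DMSO Bhlha15 was called lower (-2.09 ± 0.44, adjusted p = 0.00548, 3.88% of all probes).

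The 2 compounds of set 1 were compared directly below 10 mM. At 3 mM nitroethane exceeded nitromethane by 1.26 for Bhlha15 (95% interval 0.55 to 1.97, adjusted p = 0.413), 2.15 for Selenom (1.3 to 3.00, adjusted p = 0.236), 0.52 for Tsku (-0.05 to 1.09, adjusted p = 0.63) and 0.23 for Shc4 (-0.66 to 1.13, adjusted p = 0.861) on the log2 scale. None of the 4 was called, with 0.0179% of all probes called. The libraries did not overlap for Bhlha15 and Selenom. With 3 libraries a side this can happen without a difference, and the share of all probes without overlap was not counted. Without nitromethane 3 mM replicate 1, Bhlha15 (1.72, adjusted p = 0.0061) and Selenom (1.79, adjusted p = 0.00816) were called. DESeq2 called Selenom with all 6 libraries (2.16, adjusted p = 0.000525). At 1 mM 0 of 4 were called (0%).

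1-Nitropropane gave no uniform response, because 1 library of 3 carried it. At 10 mM Bhlha15 was 2.56, 3.94 and 77.9 CPM, Selenom 3.24, 3.8 and 83.5 CPM, Tsku 43.2, 40.4 and 686 CPM and Shc4 3.37, 3.12 and 14.2 CPM. Replicate 3 was thus 24.0, 23.7, 16.4 and 4.37 times the mean of replicates 1 and 2, and for Bhlha15, Selenom and Tsku it was the highest level in all 105 libraries. Replicates 1 and 2 lay below the DMSO libraries of set 2 for Bhlha15 (6.81, 5.59 and 7.84 CPM) and Tsku (45.2, 46.6 and 46.3 CPM).

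The same replicate number stood high at lower concentrations. At 3 mM Bhlha15 was 2.13, 6.66 and 37.0 CPM, Selenom 4.98, 7.61 and 27.3 CPM, Tsku 41.2, 33.7 and 96.4 CPM and Shc4 3.2, 3.4 and 6.49 CPM. At 1 mM replicate 3 was 2.83, 1.98, 2.92 and 2.87 times the mean of the other two, in the same order of genes. The libraries with the number 3 occupied plate column 3 of the set at every concentration. From 0.003 to 0.1 mM replicate 3 was the highest for 2 of 4 concentrations in Bhlha15, 2 in Selenom, 3 in Tsku and 2 in Shc4. In the 16 libraries of replicates 1 and 2 over all concentrations Bhlha15 ran from 1.67 to 6.66 CPM, Selenom from 1.96 to 7.61 CPM and Tsku from 20.5 to 53.4 CPM.

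Some marker lists moved with that library as well. The Kupffer list sum in 10 mM 1-nitropropane replicate 3 was 175 CPM against 59.8 and 55.6 CPM in replicates 1 and 2, and the cholangiocyte list sum was 475 against 1142 and 1120 CPM. The stellate cell list sum was 258 against 346 and 359 CPM, while the hepatocyte list sum was 9162 against 8635 and 8926 CPM. The first 2 sums lay past the 10 mM nitroethane libraries (93.1 to 141 and 498 to 524 CPM). Their part in the 1-nitropropane values was not tested.

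**Figure D2:**
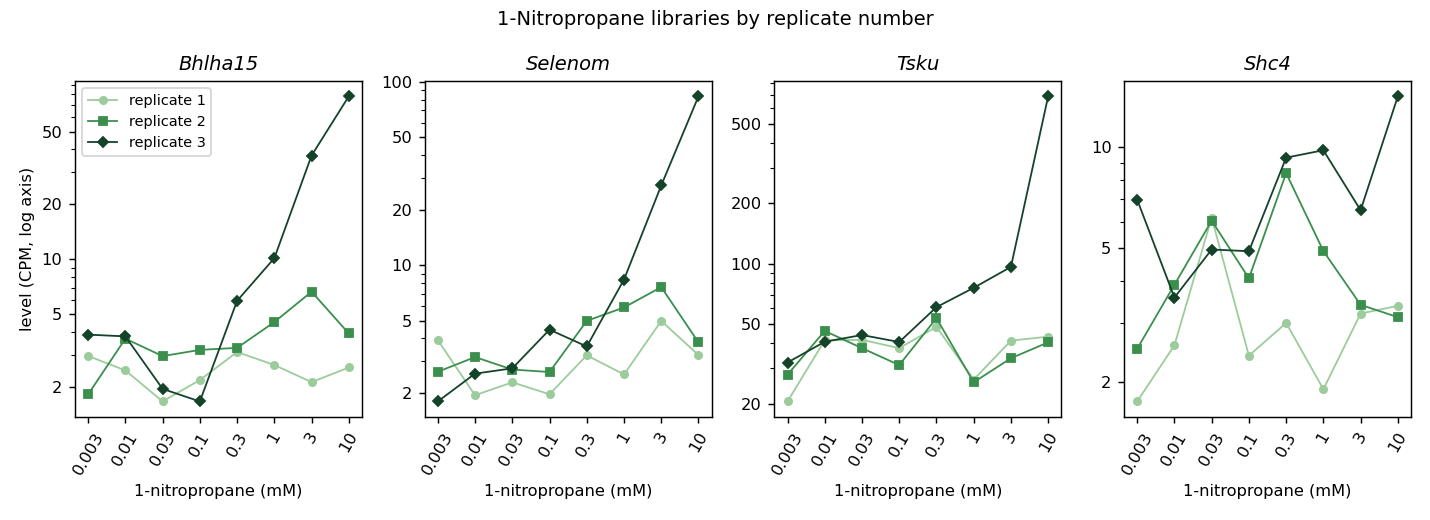
Level of each gene (CPM, log axis) in the 24 libraries of 1-nitropropane against concentration (mM, by rank), with a line for each replicate number. Replicate 3 rises to 77.9 CPM for Bhlha15 and 686 CPM for Tsku at 10 mM, where replicates 1 and 2 stay at 2.56 and 3.94 and at 43.2 and 40.4 CPM.

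The tests of 1-nitropropane rest on that library. The trend over 0.003 to 10 mM was called for 3 of 4 members (5.59% of all probes), with slopes of 0.48 ± 0.11 for Bhlha15 (adjusted p = 0.021), 0.48 ± 0.10 for Selenom (0.0133) and 0.32 ± 0.08 for Tsku (0.0311), and 0.11 ± 0.07 for Shc4 (0.301). Without the 8 libraries numbered 3 none was called, with slopes of 0.09, 0.12 and 0.04 for the first 3 genes. Without replicate 3 of 10 mM alone none was called either (0.21, 0.22 and 0.09). Without 0.003 mM replicate 1 or 2, or 3 mM replicate 3, Selenom alone was called, and the Tsku call was also lost without 5 other single libraries. At 10 mM against medium 3 of 4 were called (10.2% of all probes), with log2 changes of 3.52 ± 1.05 for Bhlha15 (adjusted p = 0.0406), 3.81 ± 0.97 for Selenom (0.0233) and 3.10 ± 0.78 for Tsku (0.0221), beside 0.74 ± 0.58 for Shc4 (0.404). Without replicate 3 of 10 mM these were 0.31, 0.62, 0.39 and -0.42 and none was called. Without medium replicate 5, or with the 6 libraries fitted alone, none was called, and Tsku alone was called without medium replicate 4 or 6. Against DMSO 0 of 4 were called at 10 mM (2.17%), with changes of 2.07 ± 0.96, 2.69 ± 0.91, 2.48 ± 0.76 and 1.86 ± 0.64. Without replicate 3 the first 3 of these turned to -1.11, -0.47 and -0.20. Without replicate 1 Selenom (3.24, adjusted p = 0.0379) and Tsku (3.00, adjusted p = 0.0209) were called, and without replicate 2 the same 2 genes (0.0452 and 0.0224). At 3 mM 0 of 4 were called against DMSO (0.57%) or medium (0.223%). Against medium, Bhlha15 (2.61, adjusted p = 1.54e-12), Selenom (2.59, 5.74e-12) and Tsku (0.89, 0.000152) were called with no low-count filter. Bhlha15 (0.0367) and Selenom (0.00876) were called there without replicate 3 of 10 mM in the fit.

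Effects against the own DMSO were then compared across sets at 3 mM, the highest matched concentration outside the choice. The effect of 1-nitropropane minus that of nitroethane was -0.91 for Bhlha15 (95% interval -3.04 to 1.21, adjusted p = 0.892), -0.32 for Selenom (-1.85 to 1.21, 0.959), -0.52 for Tsku (-1.51 to 0.47, 0.856) and -0.71 for Shc4 (-1.77 to 0.35, 0.802). Minus that of nitromethane it was 0.35 for Bhlha15 (-1.65 to 2.35, 0.921), 1.83 for Selenom (0.14 to 3.52, 0.802), 0.01 for Tsku (-0.88 to 0.90, 0.996) and -0.47 for Shc4 (-1.72 to 0.78, 0.841). None of the 4 was called in either comparison (0% of all probes in both). Without 1-nitropropane 3 mM replicate 3, Bhlha15 (-2.74, adjusted p = 0.0016) and Tsku (-1.13, adjusted p = 0.0384) were called lower than with nitroethane. At 10 mM the effects are a description: 2.07 and 3.22 for Bhlha15 with 1-nitropropane and nitroethane, 2.69 and 3.13 for Selenom, 2.48 and 3.16 for Tsku and 1.86 and 3.52 for Shc4.

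**Figure D3:**
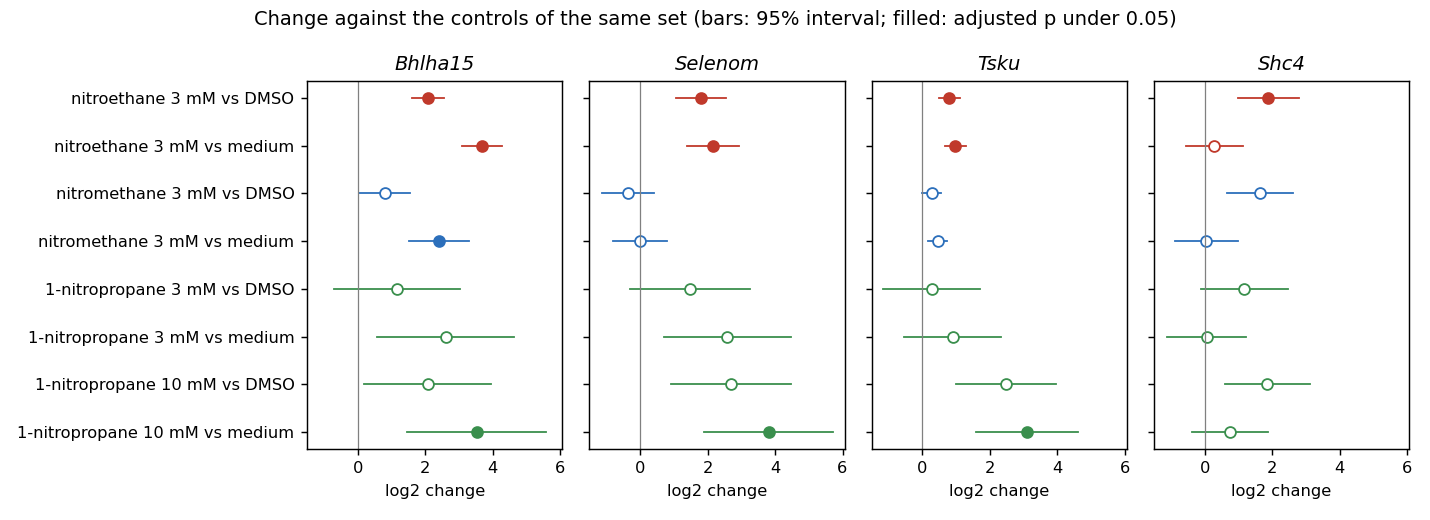
Log2 change of each gene against the DMSO or medium libraries of its own set for nitroethane and nitromethane at 3 mM and 1-nitropropane at 3 and 10 mM; bars are 95% intervals and filled points were called at an adjusted p under 0.05. The 3 filled points of nitroethane in the medium row for Bhlha15, Selenom and Tsku lie at 3.68, 2.15 and 0.98, and the bars of 1-nitropropane are wider than those of nitroethane.

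The controls themselves differed for these genes. In set 1 medium against DMSO gave -1.58 ± 0.41 for Bhlha15 (adjusted p = 0.0121) and 1.61 ± 0.39 for Shc4 (adjusted p = 0.00767), 2 of 4 members beside 7.06% of all probes. Both groups of set 1 were controls of the choice, so that count is not independent of the choice. In set 2 medium against DMSO gave -1.42 ± 0.41 for Bhlha15 (adjusted p = 0.0173) and -0.59 ± 0.14 for Tsku (adjusted p = 0.00523), beside 24% of all probes. Shc4 in set 2 was 1.31, 1.79 and 2.57 CPM in DMSO and 5.08, 4.43 and 3.92 CPM in medium, with no overlap (adjusted p = 0.0512). The Bhlha15 call in set 1 was lost without DMSO replicate 1 (adjusted p = 0.0641) or medium replicate 3 (0.112), and in set 2 without DMSO replicate 4 (0.0563) or 6 (0.0727). The Shc4 call in set 1 was lost without medium replicate 1 (0.091). The lowest nitroalkane libraries lay with medium: the 36 libraries of 0.003 to 0.1 mM had medians of 2.82 CPM for Bhlha15 and 4.93 CPM for Shc4, beside 2.52 and 4.72 CPM in the 6 medium libraries and 6.20 and 1.72 CPM in the 6 DMSO libraries.

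The reference compounds separated the 4 genes. Benzo[a]pyrene, a ligand of the aryl hydrocarbon receptor (AhR), raised Tsku, the 1 member called in each comparison. Tsku was 209, 196 and 182 CPM, above all libraries but those of 10 mM nitroethane and 1 of 10 mM 1-nitropropane, a change of 2.26 ± 0.16 against DMSO (adjusted p = 7.76e-11, 9.17% of all probes called) and 2.42 ± 0.16 against medium (adjusted p = 1.37e-11, 19.7%). Bhlha15 was 3.52, 2.68 and 2.47 CPM there, below every DMSO library and overlapping medium, with -1.12 ± 0.39 against DMSO (adjusted p = 0.0683, and 0.0421 with DESeq2). Selenom was 5.56, 5.00 and 6.05 CPM, above all controls of the set (0.34 ± 0.29 against DMSO, adjusted p = 0.565).

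CITCO, an agonist of the human constitutive androstane receptor, was given at 20 µM with all 4 genes called against medium (4 of 4, 14.7% of all probes), the control that itself differed from DMSO for Bhlha15 and Shc4. Bhlha15 was 6.95, 9.56 and 11.2 CPM (2.17 ± 0.40, adjusted p = 0.000226), Selenom 6.84, 7.91 and 6.79 CPM (1.09 ± 0.30, adjusted p = 0.0109) and Tsku 54.4, 85.7 and 75.8 CPM (1.02 ± 0.16, adjusted p = 5.03e-05). Shc4 was lower than medium, at 2.32, 1.65 and 1.57 CPM (-1.57 ± 0.39, adjusted p = 0.00508), and overlapped DMSO. Against DMSO Tsku alone was called (0.86 ± 0.16, adjusted p = 0.00502, 0.843% of all probes), and that call was lost without DMSO replicate 2 (adjusted p = 0.0518). The Selenom call was lost without medium replicate 3 (0.0747) and the Shc4 call without medium replicate 1 (0.0626). At 10 µM CITCO Tsku was 57.0, 46.0 and 49.8 CPM, above the set 1 controls in each library.

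WY-14643, a PPARα agonist, and rifampin, an agonist of the human pregnane X receptor, gave calls for Shc4 and Tsku only. In set 1 WY-14643 gave Shc4 at 8.36, 8.46 and 2.69 CPM, 1.74 ± 0.39 against DMSO (adjusted p = 0.00587, 4.88% of all probes), a call lost without its replicate 1 (0.0508) or 2 (0.0561). Against medium 0 of 4 were called (5.8%). In set 2, where Shc4 was 3.5, 1.2 and 1.83 CPM, 0 of 4 were called against DMSO (0.901%) and Tsku against medium (0.56 ± 0.14, adjusted p = 0.0108, 16.9%), a call lost without medium replicate 5 (0.0527) or WY-14643 replicate 5 (0.0627). The difference of the Shc4 effect between the sets was 1.56 ± 0.62 (adjusted p = 0.652), and the concentrations may differ. Rifampin at 40 µM gave Shc4 at 2.20, 0.986 and 1.52 CPM, -1.89 ± 0.40 against medium (adjusted p = 0.00652, 3.31% of all probes), a call lost without medium replicate 1 (0.0717) or rifampin replicate 2 (0.0528). Against DMSO 0 of 4 were called (1.69%).

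**Figure D4:**
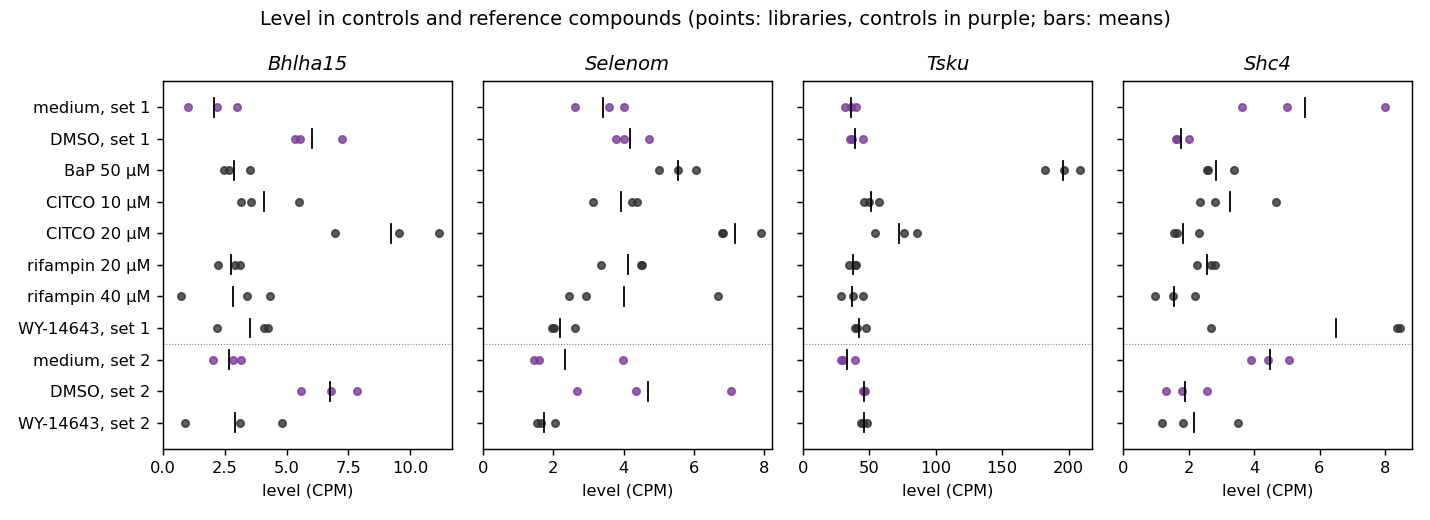
Level of each gene (CPM) in the control and reference groups of set 1 (above the dotted line) and set 2 (below it); points are libraries, with controls in purple, and bars are means of 3. Tsku stands at 182 to 209 CPM with benzo[a]pyrene, and Shc4 is at 1.31 to 2.57 CPM in the 6 DMSO libraries and 3.64 to 8.0 CPM in the 6 medium libraries.

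In the order of the 35 group means, 10 mM nitroethane was first for each of the 4 genes (58.6 ± 1.58, 37.4 ± 15.7, 365 ± 28.3 and 22.0 ± 12.5 CPM, mean ± SD, n = 3). That place largely follows from the choice, which used these values. For Bhlha15, Selenom and Tsku 10 mM 1-nitropropane came next (28.1 ± 43.1, 30.2 ± 46.2 and 257 ± 372 CPM), its libraries overlapping those of its neighbours. Nitroethane at 3 mM stood next for Bhlha15 (25.2 ± 3.26 CPM) and Selenom (14.4 ± 1.86 CPM), and benzo[a]pyrene next for Tsku (196 ± 13.4 CPM), with no overlap to CITCO at 20 µM below it (72.0 ± 16.0 CPM). For Shc4 nitroethane at 1 and 0.3 mM followed (13.98 ± 6.50 and 10.9 ± 5.21 CPM), all overlapping. At the other end stood 0.003 mM nitromethane for Bhlha15 (1.44 ± 0.32 CPM), WY-14643 of set 2 for Selenom (1.74 ± 0.27 CPM), 0.003 mM 1-nitropropane for Tsku (26.8 ± 5.86 CPM) and rifampin at 40 µM for Shc4 (1.57 ± 0.61 CPM).

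Across the 35 group means (log2 of CPM + 1, centred within each set) the genes with the most similar course differed between members. As a description over groups that share libraries' depth and cell lot, Bhlha15 was most like RGD1304884 (r = 0.92), Gmppb (0.92), an enzyme that makes GDP-mannose for glycosylation, and Snd1 (0.92). Selenom was most like Kdelr2 (0.95), the receptor that returns ER proteins, P4hb (0.95), a protein disulfide isomerase, and LOC103694875 (0.94). Tsku was most like H6pd (0.90), the hexose-6-phosphate dehydrogenase of the ER, Gclc (0.89), a subunit of the enzyme that starts glutathione synthesis, and Mettl7b (0.89). Shc4 was most like Lonp1 (0.95), the mitochondrial protease, Riok3 (0.87) and G0s2 (0.85), an inhibitor of triglyceride lipase. Leaving out the 2 groups of the choice gave 0.81 to 0.93 for these 12 pairs. Among members Bhlha15 and Selenom had r = 0.85 (0.73 over the 33 other groups), while Shc4 with the others had 0.30 to 0.42 (-0.05 to 0.15).

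Kdelr2 was at 163 ± 6.24 CPM in medium, 339 ± 38.2 CPM at 3 mM and 536 ± 25.0 CPM at 10 mM nitroethane and 192 ± 31.6 CPM at 10 mM nitromethane (mean ± SD, n = 3). Lonp1, like Shc4, was lower in DMSO (16.5 ± 1.60 CPM) than in medium (25.7 ± 1.81 CPM), and stood at 55.7 ± 2.22 CPM with 10 mM nitroethane.

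The pathway around Bhlha15 was followed with lists that hold none of the 4 members. Of 25 probes for ER genes controlled by XBP1 or ATF6 (22 genes), 18 rose and 0 fell in the nitroethane trend, with a median slope of 0.12 per step against -0.0049 over all probes. At 3 mM 14 rose against DMSO (median 0.66, all probes -0.013) and 20 against medium (median 1.09, all probes -0.0077). Against medium the chaperones Hyou1 (2.16 ± 0.23, adjusted p = 3.82e-07) and Hsp90b1 (1.78 ± 0.15, adjusted p = 1.55e-08) rose, as did Creld2 (1.89 ± 0.20) and Dnajc3 (1.73 ± 0.24), a co-chaperone. At 10 mM 22 rose against medium, and all 25 did without the libraries that stood apart. With 3 mM nitromethane against medium 1 rose, Hyou1 (0.47 ± 0.10, adjusted p = 0.00854). With 20 µM CITCO against medium 15 rose, Ssr1 (1.08 ± 0.14) and Hyou1 (1.04 ± 0.09) among them, and in medium against DMSO of set 1 12 fell, Hspa5 (-0.85 ± 0.18) among them. The lists were not counted for CITCO against DMSO, where 0.843% of all probes were called. With 10 mM 1-nitropropane against medium 11 rose, Ero1b the most (2.77 ± 0.63), and 0 did without replicate 3 of 10 mM, 0 without medium replicate 5 and 6 without medium replicate 4 or 6. Benzo[a]pyrene against DMSO gave 0 higher and 2 lower. Of all probes 542 of 12326 rose in the nitroethane trend, and at 3 mM 377 of 12326 against DMSO and 759 of 12339 against medium. At 10 mM nitroethane 2052 of 12339 rose against medium. With nitromethane 239 of 12231 rose, with CITCO 887 of 12102 and with 1-nitropropane 826 of 12129, in the comparisons above. In medium against DMSO 469 of 12102 fell, and with benzo[a]pyrene 496 rose and 614 fell.

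Of 10 tested regulators and partners of Bhlha15, Xbp1 (1.14 ± 0.18, adjusted p = 6.84e-05) and Atf6 (0.78 ± 0.20, adjusted p = 0.00897) rose at 3 mM nitroethane against medium. Id3, an inhibitor of helix-loop-helix factors, fell (-0.93 ± 0.21, adjusted p = 0.00323), as did Eif2ak3, the sensor PERK (-0.59 ± 0.19, adjusted p = 0.039). Of 4 secretory targets of MIST1, Rab3d, a GTPase of secretory granules, rose (1.89 ± 0.23, adjusted p = 1.72e-06), Cplx2 fell (-0.45 ± 0.13, adjusted p = 0.0252), and Rab26 and Copz2 were not called. Rab3d also rose with 3 mM nitromethane (0.79 ± 0.17, adjusted p = 0.0135) and with 20 µM CITCO (0.68 ± 0.17, adjusted p = 0.00733) against medium. Of 24 tested ATF4 probes, the branch of the stress response next to XBP1, 6 rose and 0 fell at 3 mM nitroethane against DMSO (median 0.55, all probes -0.013, with 377 of all 12326 rising), Cth (1.72 ± 0.25, adjusted p = 5.9e-05) and Trib3 (1.15 ± 0.12, adjusted p = 1.54e-06) among them. Against medium 2 rose, Cth (1.31 ± 0.24, adjusted p = 0.000383) and Fgf21 (0.81 ± 0.26, adjusted p = 0.0453), where 759 of all 12339 probes rose. That count was 1 without medium replicate 1 or 3 or nitroethane replicate 2 or 3, and 3 without nitroethane replicate 1. At 10 mM against medium 3 rose and 12 fell, where 2052 of all 12339 probes rose and 2145 fell. Against DMSO at 10 mM 8 rose and 8 fell, where 1634 of all 12326 probes rose and 1923 fell. The controls differed for this list too, with 9 of 23 probes higher in medium than in DMSO of set 1 (386 of all 12102 probes).

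Selenom did not move with the selenoproteins as a group. Of 21 tested probes for other selenoproteins 3 rose and 4 fell at 3 mM nitroethane against medium (median -0.10, all probes -0.0077). Of all 12339 probes 759 rose and 664 fell in that comparison. No selenoprotein probe was called against DMSO (6.08% of all probes). Selenop, the plasma selenium carrier (1.19 ± 0.27, adjusted p = 0.00333), and Selenos, a factor of ER-associated degradation (0.78 ± 0.20, adjusted p = 0.00995), rose, while the glutathione peroxidase Gpx2 (-0.87 ± 0.20, adjusted p = 0.00451) and Selenoh (-0.75 ± 0.21, adjusted p = 0.0165) fell. At 10 mM against medium 7 rose and 8 fell, where 2052 of all 12339 probes rose and 2145 fell. Of 7 genes of selenoprotein synthesis 0 rose and 1 fell at 3 mM against medium, Trnau1ap (-0.68 ± 0.21, adjusted p = 0.0313). In the trend Scly, which recovers selenium from selenocysteine (0.09 ± 0.02 per step, adjusted p = 0.00798), and Sepsecs (0.06 ± 0.02, adjusted p = 0.0281) rose, beside 542 of all 12326 probes. At 10 mM 4 of the 7 rose and 0 fell against medium, and 3 rose and 0 fell against DMSO. There 1634 of all 12326 probes rose against DMSO.

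Of 15 probes for small leucine-rich proteoglycans, the relatives of Tsku, 4 passed the low-count filter in the nitroethane fits, and none was called in the trend, at 3 mM or at 10 mM.

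At 3 mM nitroethane against medium 664 of all 12339 probes fell. Around Shc4, 0 of 15 tested probes of the SHC family, adaptors and kinases down to ERK rose and 3 fell in that comparison: Nras (-0.73 ± 0.20, adjusted p = 0.015), Gab2 (-0.59 ± 0.18, adjusted p = 0.0292) and Mapk3 (-0.56 ± 0.18, adjusted p = 0.0451). Of 10 growth factor receptors 2 fell, Fgfr4 (-0.49 ± 0.16, adjusted p = 0.0403) and Met, the receptor of hepatocyte growth factor (-0.37 ± 0.11, adjusted p = 0.0309). Of 15 ERK output probes 5 fell and 0 rose, led by the phosphatase Dusp6 (-1.70 ± 0.30, adjusted p = 0.000281), Etv4 (-1.41 ± 0.20, adjusted p = 2.77e-05) and Dusp4 (-1.09 ± 0.19, adjusted p = 0.000229). Without medium replicate 2 the count was 3, and against DMSO 3 of 14 fell, where 373 of all 12326 probes fell. In the trend 6 of 14 fell, beside 652 of all 12326 probes, and 3 did without 0.003 mM replicate 1. At 10 mM against DMSO 11 of 14 fell, where 1923 of all 12326 probes fell.

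**Figure D5:**
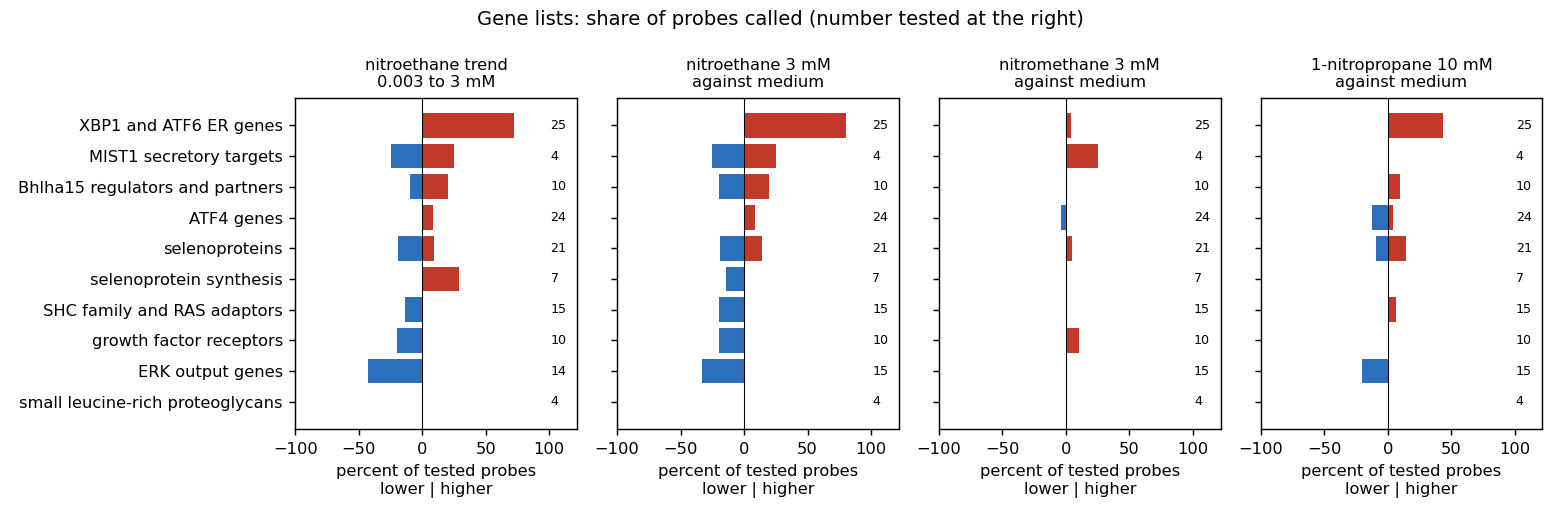
Share of tested probes of each gene list that were called higher (red, right) or lower (blue, left), in percent, in 4 comparisons; the number tested stands at the right of each row. The ER genes of XBP1 and ATF6 lead with 18 of 25 higher in the nitroethane trend and 20 of 25 at 3 mM against medium, beside 1 of 25 with 3 mM nitromethane.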

How the data were processed

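The authors deposited raw read counts for 22253 detector probes in 105 libraries. The submitters' processing notes list FastQC, Bowtie, R (3.5.3) and DESeq2 (1.28.1), and the genome build is not given in the sources used here. The labels name a human panel, yet the symbols are those of rat genes: 15980 of 20946 matched a GRCr8 gene table. For the tests, edgeR 4.0.16 (R 4.3.3) was run with filterByExpr at a minimum count of 10, TMM factors, robust dispersions and the quasi-likelihood F test. The SE is the absolute log2 change over the square root of F, and 95% intervals use it. Each compound was fitted with its 8 concentrations and 1 control of its set, and the reference compounds of a set together. Trends are linear over the rank of the concentration. Likeness used probes with a mean of at least 10 CPM. The fit was tested on simulated data.

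The members and the gene lists were chosen with earlier results of these data known. Named genes are the members, the 3 most similar probes of each, up to 4 called probes of each list by size of change and the neighbours in rank; Rab26 and Copz2 were named after their values were seen. DESeq2 1.42.0, other scalings, no low-count filter, a replicate block, fits of only the libraries compared and fits without single libraries were alternatives. Leaving out the 1-nitropropane libraries numbered 3 was chosen after seeing the data.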

Additional observations from a re-analysis of the deposited data

How the results depend on the processing

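All 39 called values of single members kept their sign under every alternative run. Of the number of members called, these changes bear on the main comparisons. With DESeq2 it went from 0 to 1 for 3 mM nitromethane against DMSO (Shc4) and for nitroethane against nitromethane at 3 mM (Selenom), and from 1 to 2 for benzo[a]pyrene against DMSO (Bhlha15). With no low-count filter it was 2 for benzo[a]pyrene, 4 in place of 2 for medium against DMSO of set 2 and 1 in place of 0 for WY-14643 against DMSO of set 2. With only the libraries compared it was 0 for 3 mM nitromethane against medium and for 10 mM 1-nitropropane against medium, 2 for benzo[a]pyrene and 1 for WY-14643 of set 2. Without the libraries that stood apart it was 0 for the 1-nitropropane trend and for 10 mM against medium, and 2 for nitroethane against nitromethane at 3 mM. Without the 1-nitropropane libraries numbered 3 it was 0 for that trend and for 10 mM against medium, and 2 for the 1-nitropropane effect against the nitroethane effect. Other counts moved as well. For 3 mM 1-nitropropane against medium 0 became 3 with no filter and 2 without the libraries that stood apart. For 1 mM nitroethane against medium 1 became 3 with no filter, 2 with DESeq2, library totals or without the libraries that stood apart, and 0 with only the libraries compared. Against DMSO 1 became 2 with DESeq2, library totals or without the libraries that stood apart. For 0.003 mM nitromethane against DMSO 1 became 2 with only the libraries compared or without the libraries that stood apart. For 1 mM nitromethane against DMSO 1 became 0 with only the libraries compared. With no filter 1 was called for rifampin against DMSO in place of 0 and 2 for benzo[a]pyrene against medium in place of 1, and for WY-14643 of set 1 against DMSO 2 in place of 1 with DESeq2 or the replicate block.

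Leaving out single libraries gave 0 to 3 members for the 1-nitropropane trend and for 10 mM against medium, 0 to 2 for 10 mM against DMSO, for nitroethane against nitromethane at 3 mM and for the 1-nitropropane effect against the nitroethane effect, 1 to 2 for medium against DMSO of set 1 and 1 to 3 in set 2. It moved 10 mM 1-nitropropane against DMSO between -1.11 and 2.62 for Bhlha15, -0.47 and 3.24 for Selenom and -0.20 and 3.00 for Tsku, and against medium between -0.42 and 1.09 for Shc4. Nitroethane against nitromethane at 3 mM ran from -0.037 to 0.76 for Shc4. The 1-nitropropane effect minus the nitroethane effect ran from -1.42 to 0.12 for Selenom. Minus the nitromethane effect it ran from -1.48 to 0.88 for Bhlha15, -0.62 to 0.29 for Tsku and -0.89 to 0.067 for Shc4.

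No called value reversed, and uncalled ones did, among them the following. Without the libraries numbered 3, 10 mM 1-nitropropane gave -1.12 (Bhlha15), -0.49 (Selenom) and -0.21 (Tsku) against DMSO and -0.42 (Shc4) against medium, and the effect minus that of nitromethane gave -1.48 (Bhlha15) and -0.62 (Tsku). Without the libraries that stood apart the first 4 were -1.11, -0.47, -0.20 and -0.42, and Shc4 minus nitromethane was 0.067. Tsku minus nitromethane, 0.01, was -0.00687 with DESeq2, -0.0164 with library totals, -0.00468 with no filter and -0.00542 with RLE factors. At 3 mM 1-nitropropane without the libraries numbered 3 gave -0.68 (Bhlha15) and -0.35 (Tsku) against DMSO and -0.38 (Shc4) against medium. At 3 mM nitromethane against medium, without the libraries that stood apart, Selenom was 0.34 and Shc4 -0.48. Library totals moved the median of all probes by at most 0.13. The cause of these changes was not tested.

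No comparison checked met the rule used for same-numbered libraries deviating together (every pair's r over 0.1). Nitroethane and nitromethane at 1 mM had r from -0.57 to 0.46. Single pairs reached r = 0.75 in the nitroethane trend, 0.85 in the nitromethane trend and 0.55 in the 1-nitropropane trend. The rule asks for every pair, so it cannot show whether libraries deviated together at some concentrations only. Replicate 3 of 1-nitropropane did stand high at 1, 3 and 10 mM. With the replicate block 3 members stayed called in the nitroethane trend, 2 in place of 3 in the 1-nitropropane trend (Tsku 0.25, adjusted p = 0.0685), and Shc4 at 0.003 mM nitroethane had an adjusted p of 0.052. The lowest member counts, 4 to 9 reads in Bhlha15, Selenom and Shc4, limit their precision. Intervals cover the spread between wells only.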
